A study of Homo sapiens with 47 samples.

Results

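Replication-independent histone variants are histone proteins whose genes are transcribed outside S phase as well as in it and make polyadenylated RNA. The genes H3-3A, H3-3B, H2AZ1, H2AZ2, H1-10, MACROH2A1, MACROH2A2 and H2AJ were taken by their current symbols. All 8 were found among the 58395 genes counted, and all 8 were among the 28025 genes that passed a filter on low counts. The RNA-seq data come from HEK293T cells, a cell line derived from human embryonic kidney, after depletion of ribosomal RNA, with 3 wild-type libraries and 3 EAF1-mutant libraries. The EAF1-mutant cells were made from HEK293T by CRISPR knock-in of a point mutation that turns 4 amino acids at the MED26-binding site of EAF1, an ELL-associated factor, into alanines. MED26 is a subunit of Mediator, and the comparison asks how RNA levels differ when this contact of Mediator with EAF1 is changed. The methods name 1 EAF1-mutant line, so what the mutation does and what is particular to that line cannot be told apart.

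Canonical histones are made in bulk during S phase from replication-dependent histone (RDH) genes, which lack introns and whose RNA ends in a stem-loop in place of a poly(A) tail. Variants are made at other times as well and replace canonical histones in chromatin through dedicated chaperones and remodelling complexes: H3.3 is placed by the HIRA complex and by DAXX with ATRX, and H2A.Z by the SRCAP and EP400 complexes. H3.3 is known for marking active genes and repeats, H2A.Z for flanking promoters, macroH2A for repressed chromatin, and H1-10 is a linker histone.

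Sequencing depth was 59137210, 52541541 and 55637032 counts for wild type and 57198018, 53369621 and 66611451 counts for the EAF1 mutant. Values per library are given as CPM, counts scaled to a common library size after TMM scaling by edgeR. At these depths 1 count is worth 0.0145 to 0.0198 CPM. All 28025 genes were tested together by edgeR (quasi-likelihood), with p-values adjusted by the method of Benjamini and Hochberg, and a gene was called changed at an adjusted p under 0.01 with a log2 fold change over 0.5 in size. The methods of the study call its replicates biological in general, while the labels only number these libraries, and p-values measure the spread between them. The counts of any pair of libraries of a group differed by more than sampling noise, with a chi-square per degree of freedom from 2.87 to 8.90.

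EAF1 itself (ENSG00000144597, chromosome 3, 15427598 to 15450635 in GRCh38) had 57.4, 58.4 and 56.5 CPM in the wild-type libraries and 19.7, 17.9 and 18.8 CPM in the EAF1-mutant libraries, or -1.61 as log2 fold change (standard error 0.05, adjusted p = 2.48e-18). A point mutation leaves the RNA countable, so this level checks no label. The 84 tested genes within 5 Mb of EAF1 had a median log2 fold change of -1.41. Among 8 markers fixed for HEK293T, an embryonic kidney line with neural traits, VIM was the most abundant at 380.5 ± 8.97 CPM (SD, n = 3) in wild-type cells. NEFM, NEFL, KRT8, KRT18 and LHX1 were present, while PAX2 and NEFH were under 1 CPM on average in both groups. VIM and NEFM fell and KRT8 and KRT18 rose in EAF1-mutant cells. The 8 markers summed to 548.7, 556.7 and 577.9 CPM in wild-type and 396.9, 396.4 and 406.3 CPM in EAF1-mutant libraries. Of 8 markers of leukocytes, hepatocytes, fibroblasts, endothelium and erythroid cells, the fibroblast genes COL1A1 and COL3A1 alone passed the filter. These summed markers lay between 4.55 and 5.75 CPM in the 6 libraries, with COL1A1 the most abundant, but this sum joins opposite changes, since COL3A1 fell from 2.10 ± 0.229 to 0.469 ± 0.174 CPM (log2 fold change -2.18) and COL1A1 rose from 2.85 ± 0.584 to 4.16 ± 0.153 CPM (0.545), both past the threshold. CD3E and HBB had counts in 1 library each. The part of these marker differences in the values of the variant genes was not tested.

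The RNA ends of the variant genes were set beside those of RDH genes by sequence. The variant genes were listed as making polyadenylated RNA, so this contrast partly follows from the choice of genes. In the reference transcript of each gene in GENCODE, a poly(A) signal (AATAAA or ATTAAA in the last 60 bases) was found in 6 of the 8 variant genes and in 78.2% of 19980 other protein-coding genes, against 6.06% of 66 protein-coding RDH genes. The histone stem-loop, a 16-base match with a stem of 6 base pairs and a loop of 4 bases, was searched over the whole transcript. It was found in 0 of 8 variant genes, in 66 of 66 RDH genes and in 0.761% of the other protein-coding genes. Within the last 100 bases it was found in 0 variant genes, 65 RDH genes and 0.04% of the others. H2AZ2 and MACROH2A1 had neither in these reference transcripts. The poly(A) signals are printed with the hexamer in capitals, followed by the stem-loops of an RDH H3 gene, of the RDH gene nearest to H2AJ and of H2AX, with the stem in capitals.
H3-3A: ttaaaatacATTAAActatacctg
H3-3B: tgagactaaAATAAAatttttgaa
H2AZ1: gataagttcAATAAAggtcatatc
H1-10: tttgggcacAATAAAgcgtttaaa
MACROH2A2: aaggaaaaaAATAAAagatccagt
H2AJ: gcgggagccAATAAAgttggtgaa
H3C14 stem-loop: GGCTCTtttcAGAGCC
H4C16 stem-loop: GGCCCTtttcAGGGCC
H2AX stem-loop: GGCCCTtttaAGGGCC
H2AX, a variant used in DNA damage signalling, carries both kinds of end, a stem-loop that stops 1024 bases before the end of its transcript and an ATTAAA near the end. A single exon, the form of all 66 protein-coding RDH genes, was found in H1-10 and H2AJ and in 5.33% of other protein-coding genes, and the remaining variant genes had 4 to 9 exons. A sequence match is a description and was not set against any measured RNA end.

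None of the 8 variant genes was called changed in EAF1-mutant cells. Of all tested genes, 9.36% were called lower and 11% higher, 20.3% in all, and by edgeR the variant genes numbered 0 lower and 0 higher of 8; the count was also 0 by DESeq2. All 8 had an unadjusted p under 0.05 with either tool, as did 56.2% of all tested genes in edgeR, 73.6% of those that averaged 10 CPM or more, and 49.1% of all tested genes in DESeq2. Each log2 fold change was under 0.5 in size, as were those of 72.1% of all tested genes and 82.7% of those that averaged 10 CPM or more. Of these 11418 well-covered genes, 1363 were called lower and 609 higher. Without a limit on the fold change, 5 of 8 were lower at an adjusted p under 0.01 in edgeR and 4 in DESeq2, against 21.1% of all tested genes, and 0 of 8 were higher with either tool, against 20.5%. This count was 1 lower and 1 higher with library totals or upper-quartile scaling in place of TMM, 2 lower without EAF1-mutant replicate 2, and 1 lower without EAF1-mutant replicate 3. It was 4 lower and 1 higher without a filter, with a replicate block and without wild-type replicate 3, and 6 lower without wild-type replicate 2. In the remaining settings, a filter at 1 CPM and replicate 1 of either group left out, it was 4 lower. In 7 of the 8 genes every EAF1-mutant library lay below every wild-type library, a pattern found in 28.1% of all tested genes, and in H2AJ every EAF1-mutant library lay above, as in 29.2%, while with library totals this held for H2AZ1 below and H2AJ above and the other 6 genes overlapped. Well-covered genes reach both marks more often: of the 11418 tested genes that averaged 10 CPM or more, 36.7% were lower at an adjusted p under 0.01 and 42.9% had all EAF1-mutant libraries below. The median log2 fold change of the 8 genes was -0.14 (-0.025 with library totals), beside 0.01 for all tested genes and -0.05 for those with at least 10 CPM. In RNA from whole cultures, fewer cells making an RNA and less of it per cell cannot be told apart.

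**Figure D1:**
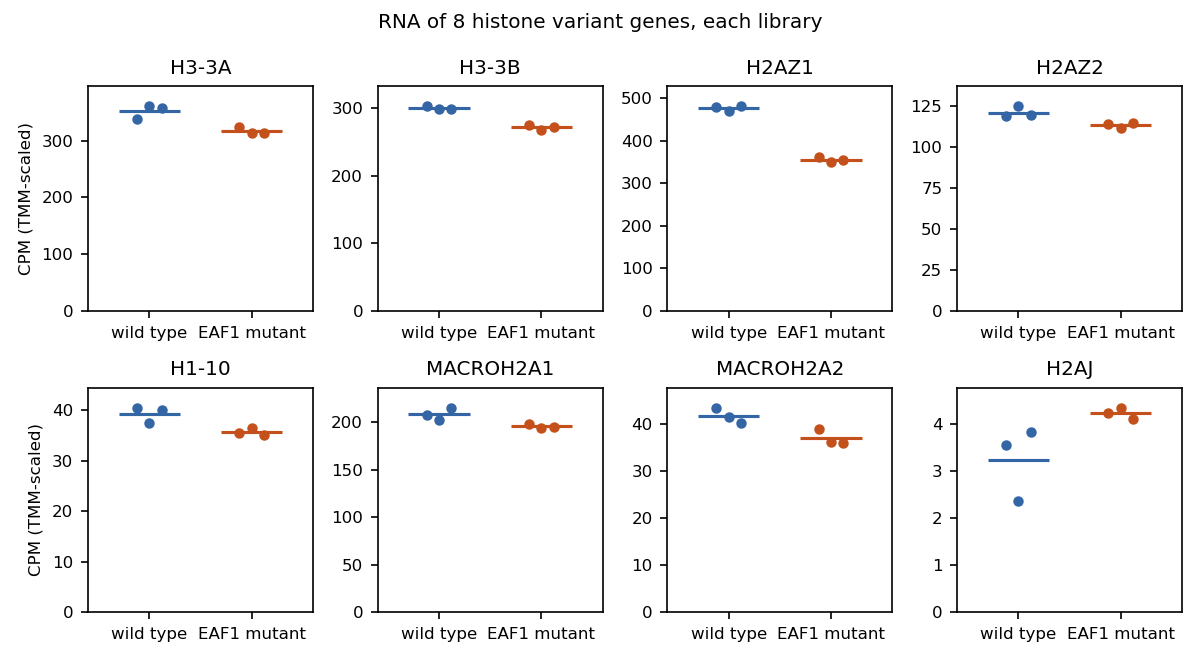
RNA level of the 8 variant genes in CPM (vertical axis, from 0), with 1 point per library, wild type at the left and EAF1 mutant at the right of each panel, and a line at the mean of 3 libraries. On this scaling the groups do not overlap in any panel, whereas with library totals they part for H2AZ1 and H2AJ alone, and the difference is widest for H2AZ1, 477.2 against 355.2 CPM on average.

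The choice of scaling matters for differences of this size. With library totals in place of TMM factors the median over all tested genes moved, as log2 fold change, from 0.01 to 0.13, a shift of about the same size as most of the variant genes' values. With library totals, H2AZ2 and MACROH2A1 turned to 0.025 each, so that 5 of 8 genes lay below 0 and 2 of 8 had an unadjusted p under 0.05, beside 58.7% of all tested genes. Relative to the median of all tested genes, the same 7 genes lay below it under TMM, DESeq2, upper-quartile scaling and library totals. A change of scaling moves all genes and this median by about the same amount, so this count says nothing of stability. The distance of H2AZ1 from that median was -0.438 under TMM, upper-quartile scaling and library totals alike. The split of calls over all genes also moved, from 2624 lower and 3071 higher with TMM to 1840 lower and 4169 higher with library totals.

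**Figure D2:**
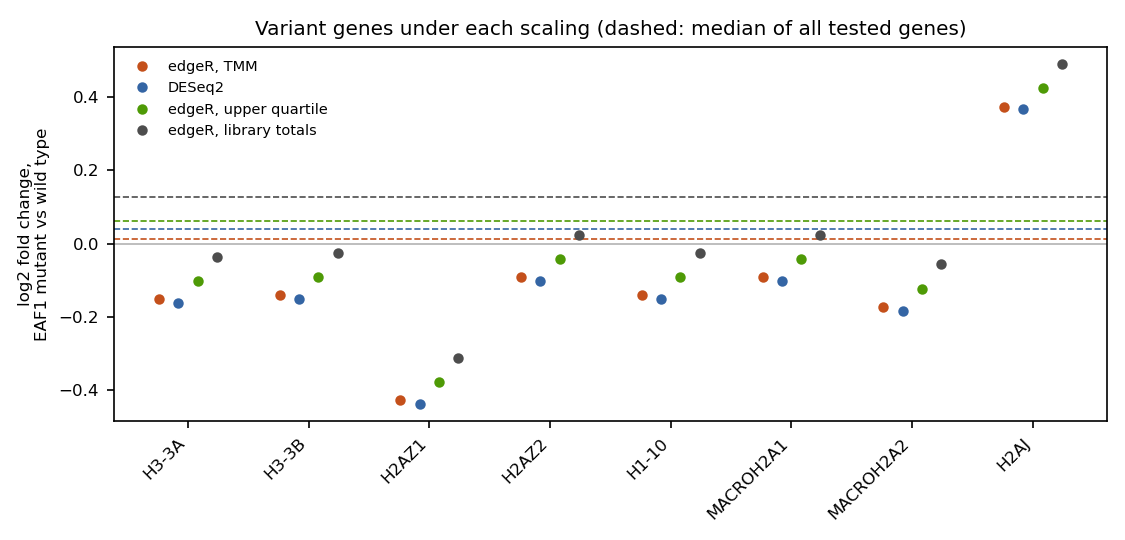
Log2 fold change of each variant gene, EAF1 mutant against wild type (vertical axis), under 4 scalings shown by color, with dashed lines at the median of all tested genes under the same scaling. All points move up together from TMM to library totals, where H2AZ2 and MACROH2A1 cross 0. The dashed lines move with them, and 7 genes lie below the dashed line of their color.

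H3.3 is encoded by H3-3A and H3-3B, whose coding sequences of 411 bases differ at 88 bases and give the same 136 amino acids; the RDH gene H3C1 differs from H3-3A at 5 residues. H3-3A (ENSG00000163041, chromosome 1, 226061851 to 226072019, + strand) had 338.2, 360.3 and 358.3 CPM in the wild-type libraries and 324.2, 314.1 and 313.0 CPM in the EAF1-mutant libraries. Wild-type replicate 1 was the lowest of its group and stood just above the highest EAF1-mutant library, so the groups did not overlap. The log2 fold change was -0.15 (standard error 0.04, 95% interval -0.23 to -0.08, adjusted p = 0.00122), and with library totals it was -0.04. H3-3B (ENSG00000132475, chromosome 17, 75776434 to 75785893, - strand) had 302.2, 298.2 and 298.4 CPM in wild-type and 275.5, 267.8 and 272.5 CPM in EAF1-mutant libraries. Its replicates were tighter than those of H3-3A, with SDs of 2.26 and 3.91 CPM. Its log2 fold change was nearly the same, -0.14 (standard error 0.03, 95% interval -0.21 to -0.07, adjusted p = 0.00141), and -0.02 with library totals. The ratio of H3-3A to H3-3B counts was 1.12, 1.21 and 1.20 in wild-type and 1.18, 1.17 and 1.15 in EAF1-mutant libraries, so the groups overlapped in the balance of the pair.

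Counts of H3-3A are uncertain because the human genome holds many processed copies of it. Of the 971 stretches of 100 bases in its reference transcript, a read's length, 64.3% occur unchanged in a transcript of another annotated gene, such as H3P6, while this was so for 0.614% in H3-3B, 1.95% in H2AZ2 and 0 in the other members. How reads that map to several places were counted is not given in the sources used here. The table holds 52 genes with retrocopy symbols (H3P or H2AZP with a number) outside the RDH list, 13 of which passed the filter. They summed to 107.5, 114.4 and 117.6 CPM in wild-type and 105.0, 104.5 and 103.2 CPM in EAF1-mutant libraries. H3P6, the most abundant, had 75.3 ± 3.99 and 69.5 ± 0.931 CPM (SD, n = 3), a log2 fold change of -0.11. By edgeR 0 of the 13 were called and 3 had an unadjusted p under 0.05 (23.1%), and DESeq2 called 1 lower.

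H2A.Z comes from H2AZ1 and H2AZ2, whose coding sequences of 387 bases are 80.4% identical and whose proteins differ at 3 of 128 residues. H2AZ1 (ENSG00000164032, chromosome 4, 99948086 to 99950355, - strand) had 480.7, 469.9 and 481.0 CPM in the wild-type libraries and 361.6, 349.7 and 354.2 CPM in the EAF1-mutant libraries. The gap between the groups was far wider than the spread within either, which had SDs of 6.30 and 5.99 CPM. With TMM this was the largest difference among the variant genes, with -0.43 as log2 fold change (standard error 0.03, 95% interval -0.50 to -0.36, adjusted p = 2.81e-10), still within the limit of 0.5. H2AJ was further from 0 than H2AZ1 with library totals (0.49 against -0.311), with upper-quartile scaling (0.424 against -0.377) and without wild-type replicate 3 (0.488 against -0.437). Under the 12 alternatives the value of H2AZ1 lay between -0.45 and -0.31, and its adjusted p between 3.24e-43 and 5.67e-08. H2AZ2 (ENSG00000105968, chromosome 7, 44826791 to 44848087, - strand) had 118.9, 124.6 and 119.2 CPM in wild-type and 113.9, 111.7 and 114.8 CPM in EAF1-mutant libraries. These groups nearly met, and the log2 fold change, -0.09 (standard error 0.04, 95% interval -0.17 to -0.02, adjusted p = 0.0431), turned to 0.025 with library totals. There were 4.04, 3.77 and 4.04 counts of H2AZ1 per count of H2AZ2 in wild-type libraries and 3.17, 3.13 and 3.08 in EAF1-mutant libraries. This ratio, which no scaling of libraries affects, did not overlap between the groups. With 3 libraries against 3, an exact permutation test cannot go below 0.1, so none was run on it.

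An antisense RNA starts inside H2AZ1. H2AZ1-DT shares 350 bases with the span of H2AZ1 on the other strand and had 100.2, 95.1 and 108.6 CPM in wild-type and 76.2, 72.3 and 73.4 CPM in EAF1-mutant libraries. Its log2 fold change, -0.46 (standard error 0.04, adjusted p = 7.91e-09), was close to that of H2AZ1. The library kit keeps strand, but whether the counting used it is not given in the sources used here. Reads of the shared stretch may therefore belong to either gene. By the same rule of overlap, H1-10-AS1 covers 895 bases of H1-10 and had 22.8 ± 1.01 and 22.5 ± 0.307 CPM (SD, n = 3), a log2 fold change of -0.02. The divergent RNAs H3-3A-DT, which shares 48 bases with H3-3A, and H2AZ2-DT, which shares none with H2AZ2, were under 1.1 CPM in each library. Their EAF1-mutant libraries all lay above the wild-type ones, opposite to the genes beside them on this scaling, with log2 fold changes of 0.623 (adjusted p = 0.011) and 0.663 (adjusted p = 0.0505) that were not called.

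Motifs were searched on both strands in the RefSeq windows from 250 bases before to 50 bases after a start (GRCh38.p14). All 8 genes matched, H3-3A with 4 windows and MACROH2A1 with 2. A variant gene was counted if any of its windows held the motif, while the percentages of promoters are per window. CCAAT was present in 6 of 8 genes, in 34.6% of 35116 promoters and in 84.6% of 65 RDH promoters. TATAAA was present in H3-3B, H2AZ1 and H1-10, in 11.5% of promoters and in 66.2% of RDH promoters. GGGCGG was present in 5 of 8 genes, in 45% of promoters and in 26.2% of RDH promoters. H2AZ1 and H2AJ, the members with the lowest and the highest log2 fold change, are printed to set the extremes side by side, over the 200 bases before the start with CCAAT, its reverse complement and TATAAA in capitals. The stretch of H2AZ1 is 4:99950276-99950475 on the - strand, 80 bases of which lie within the GENCODE span of the gene, and that of H2AJ is 12:14774205-14774404 on the + strand, outside its span.
H2AZ1: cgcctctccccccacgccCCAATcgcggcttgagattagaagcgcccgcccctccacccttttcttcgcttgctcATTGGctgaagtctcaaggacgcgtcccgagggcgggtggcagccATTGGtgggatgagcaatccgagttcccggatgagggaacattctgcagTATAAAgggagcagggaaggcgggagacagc
H2AJ: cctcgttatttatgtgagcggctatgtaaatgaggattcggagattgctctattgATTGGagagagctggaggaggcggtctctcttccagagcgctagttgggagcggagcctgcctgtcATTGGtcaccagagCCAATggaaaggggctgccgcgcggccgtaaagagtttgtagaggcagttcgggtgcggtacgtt
Both stretches hold 3 copies of CCAAT or its reverse complement, and H2AZ1 alone of the pair holds TATAAA. These letters say nothing of whether a factor binds there.

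The macroH2A proteins, H2A variants with a large non-histone domain, come from MACROH2A1 and MACROH2A2. MACROH2A1 (ENSG00000113648, chromosome 5, 135334381 to 135399914, - strand) had 207.4, 202.5 and 214.8 CPM in the wild-type libraries and 198.3, 193.6 and 194.8 CPM in the EAF1-mutant libraries. The groups were close, and the log2 fold change, -0.09 (standard error 0.04, 95% interval -0.17 to -0.02, adjusted p = 0.0386), turned to 0.025 with library totals. MACROH2A2 (ENSG00000099284, chromosome 10, 70052544 to 70112282, + strand) had 43.4, 41.4 and 40.3 CPM in wild-type and 38.9, 36.1 and 36.0 CPM in EAF1-mutant libraries. The gap between its groups was smaller than the spread within either, with SDs of 1.6 and 1.65 CPM. The log2 fold change was -0.17 (standard error 0.05, 95% interval -0.27 to -0.08, adjusted p = 0.0027), and -0.06 with library totals. MACROH2A1 had 4.78, 4.89 and 5.33 counts per count of MACROH2A2 in wild-type and 5.09, 5.36 and 5.40 in EAF1-mutant libraries, overlapping ranges.

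H1-10 encodes the linker histone also called H1.10 or H1X. The gene (ENSG00000184897, chromosome 3, 129314771 to 129316286, - strand) had 40.4, 37.4 and 40.1 CPM in the wild-type libraries and 35.5, 36.4 and 35.1 CPM in the EAF1-mutant libraries. Wild-type replicate 2 lay close to the highest EAF1-mutant library, and the groups nearly met. The log2 fold change was -0.14 (standard error 0.04, 95% interval -0.23 to -0.05, adjusted p = 0.00948), and -0.025 with library totals. H2AJ, an H2A variant close in sequence to canonical H2A, was the member with the least RNA, and its log2 fold change was above 0, as were those of H2AZ2 and MACROH2A1 with library totals only. It (ENSG00000246705, chromosome 12, 14774405 to 14778002, + strand) had 3.55, 2.37 and 3.83 CPM in wild-type and 4.25, 4.35 and 4.11 CPM in EAF1-mutant libraries. Wild-type replicate 2 stood below the other wild-type libraries, and the EAF1-mutant libraries were tight (SD 0.12 CPM). The log2 fold change was 0.37 (standard error 0.13, 95% interval 0.11 to 0.64, adjusted p = 0.0161), but this value moved more than that of any other member. It was 0.187 (adjusted p = 0.152) without wild-type replicate 2 and 0.488 (adjusted p = 0.00463) without wild-type replicate 3. With library totals it was 0.49 (adjusted p = 0.00194) and with upper-quartile scaling 0.424 (adjusted p = 0.00614), just within the limit of 0.5 in the former.

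The nearest gene on the other side of the H2AJ promoter in the lists used here is H4C16, an RDH gene 3273 bases away on the - strand of chromosome 12 (14767999 to 14771131). H4C16 fell from 50.7, 48.2 and 53.3 CPM in wild-type to 34.0, 33.4 and 34.2 CPM in EAF1-mutant libraries, with -0.58 as log2 fold change (standard error 0.04, adjusted p = 9.6e-11), a value that was -0.47 with library totals and then no longer called. The authors' ELL ChIP-seq table, made in wild-type cells, lists 90 RDH genes, H4C16 among them, and no variant gene. Its signal at H4C16 was 127.8 and 93.1 in the ELL replicates and 89.9 in the input, ratios of 1.42 and 1.04 with no replicate of the input. The table therefore says nothing of ELL at the variant genes themselves.

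Levels of different genes can be compared only per length. In wild-type cells, in CPM per kb of merged exons, H2AZ1 stood highest at 210.2 ± 2.78 (SD, n = 3), followed by H3-3A at 92.1 ± 3.2 and H3-3B at 48.8 ± 0.369. H1-10 (25.9 ± 1.1), H2AZ2 (17.3 ± 0.457) and MACROH2A1 (12.2 ± 0.363) came next, and MACROH2A2 (2.78 ± 0.107) and H2AJ (0.976 ± 0.232) were lowest. No neighbors in this order came within their SDs of each other, and the order was the same in EAF1-mutant cells, from 156.5 ± 2.64 for H2AZ1 to 1.27 ± 0.0361 for H2AJ. With the length of the longest transcript in place of merged exons, H2AZ2 (31.8) stood above H1-10 (25.9), and MACROH2A2 stood at 10.8 CPM per kb, since merged exons of a gene with many transcripts are long.

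The variant genes were set beside the RDH genes of their class in the same libraries. Of the 90 RDH genes, 71 passed the filter, of which 55 were called lower and 12 higher by edgeR and 53 lower and 7 higher by DESeq2. For H3, the 13 tested RDH genes had a median log2 fold change of -1.05, with 10 lower and 3 higher, and summed over all 17 RDH genes of the class wild-type RNA was 2795 ± 238.0 CPM and that of EAF1-mutant cells 1394 ± 10.8 CPM (SD, n = 3). The H3.3 genes summed to 651.9 ± 9.98 and 589.1 ± 9.44 CPM. Set as ratios of EAF1-mutant to wild-type means, the sums were 0.499 for RDH H3 genes and 0.904 for H3.3 genes. For H2A the ratios were 0.477 for 23 RDH genes and 0.829 for the 5 variant genes. These 5 summed to 851.3 and 705.5 CPM on average, and most of the fall was in H2AZ1, from 477.2 to 355.2 CPM. For H1 they were 0.533 for the 8 RDH genes placed in that class and 0.908 for H1-10. The H1 class holds H3P26, an H3 pseudogene by its symbol, which did not pass the filter on low counts. A count of 8 variant genes chosen with earlier results known was not tested against the RDH genes.

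**Figure D3:**
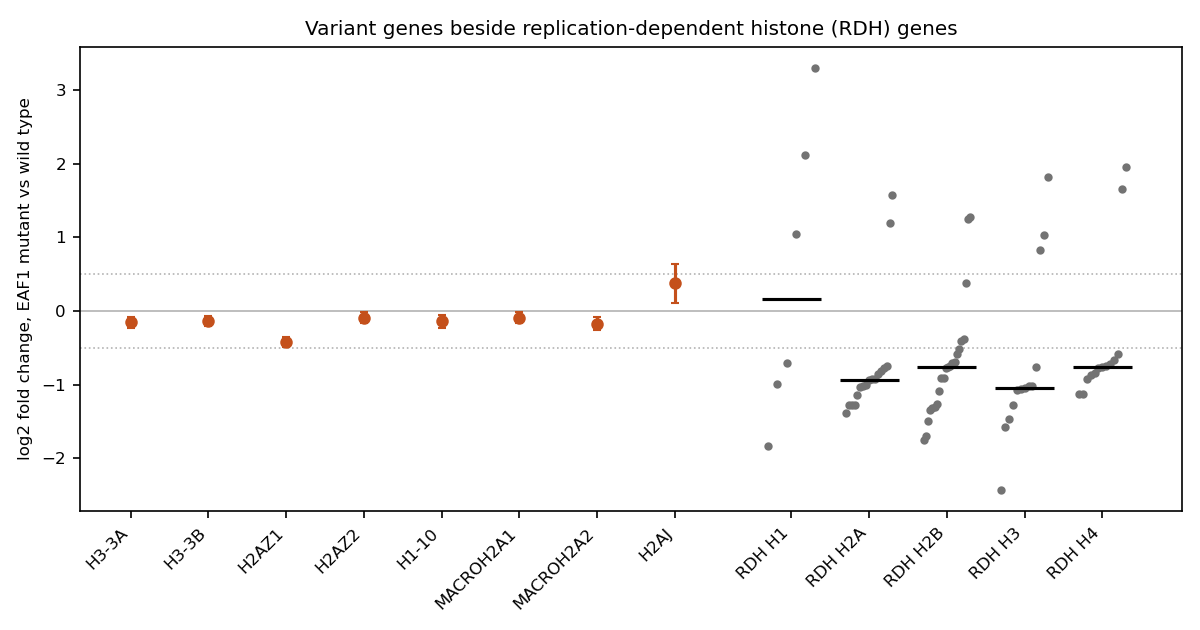
Log2 fold change, EAF1 mutant against wild type (vertical axis), of the 8 variant genes with 95% intervals (left, colored) and of the 71 tested RDH genes by class (right, 1 gray point per gene, black line at the class median), with dotted lines at the limits of 0.5 in size. The variant genes lie inside the dotted lines, although the interval of H2AJ crosses the upper one and with library totals H2AZ2 and MACROH2A1 are above 0, while most RDH H2A, H2B, H3 and H4 genes lie below; RDH H1 genes are split, 3 lower and 3 higher (2 higher by DESeq2), and the 3 higher ones, H1-5, H1-6 and H1-12P, were under 1 CPM on average in both groups.

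Beside the lower RDH RNA, the variant genes made up a larger share of the counts of both sets in each class. Histone genes outside these 2 sets, such as H2AX, CENPA, H3-5 and H3-7, are not in these counts. H3-3A and H3-3B held 17.9%, 20.7% and 18.3% of the counts of H3.3 and RDH H3 genes in the wild-type libraries and 30.1%, 29.3% and 29.7% in the EAF1-mutant libraries. The 5 H2A variant genes held 19.6%, 21.9% and 20.2% of the counts of H2A variant and RDH H2A genes in wild-type and 30.8%, 30.0% and 32.2% in EAF1-mutant libraries. H1-10 held 2.24%, 2.23% and 2.15% of the counts of H1-10 and RDH H1 genes in wild-type and 3.64%, 3.85% and 3.62% in EAF1-mutant libraries. The RDH H1 counts include those of H3P26. In each class the EAF1-mutant libraries stood together above the wild-type ones, by 10.7, 10.4 and 1.5 percentage points on average. The share is taken within a library, so no scaling affects it, and it sets the variant counts against RDH counts that were themselves lower. Sequence shared among RDH genes was not measured, and how reads that map to several places were counted is not given. The RDH sums, and with them these shares, may depend on that. Per kb, which weighs the shorter RDH genes more, the shares were smaller, 2.80% against 4.96% for H3, 3.67% against 5.82% for H2A and 1.12% against 1.88% for H1. In this calculation 5 RDH genes with no annotated length, 3 of H3 and 2 of H2A, were given the median length of their class. Lengths were those of merged exons, 3826 bases for H3-3A and 6134 for H3-3B, while their longest transcripts have 1863 and 2787. Shares by longest transcript were not calculated.

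**Figure D4:**
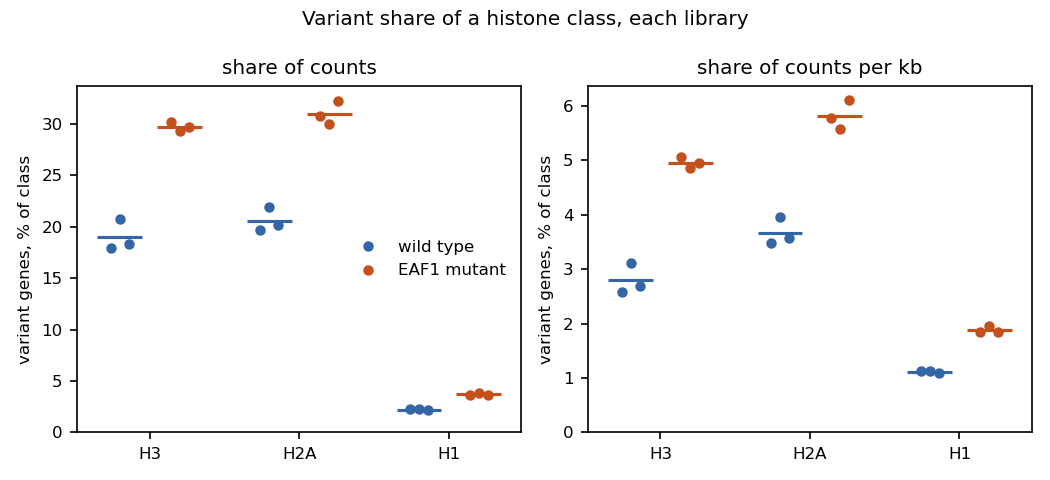
Share of the variant genes in the summed counts of variant and RDH genes of their histone class (vertical axis, percent, from 0), as counts at the left and as counts per kb at the right, with 1 point per library and a line at the mean of 3. In all 3 classes and on both scales the EAF1-mutant points lie above the wild-type points, for H3 at 29.7% against 19.0% of counts on average.

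Other histone genes in a list of 16 differed among themselves. The list was meant for genes outside the canonical set but holds 2 genes of the RDH list, H3-4 and H4C16. Of the 16 genes, 7 passed the filter; 3 were called lower, among them H4C16, which is also in the RDH count above, and 1 higher. H3-7, which is not on the RDH list but has a stem-loop and spans a gene of that list on the same strand, fell from 35.7 ± 1.94 to 13.5 ± 0.872 CPM (SD, n = 3; log2 fold change -1.40). H2AX had 87.8 ± 6.16 and 84.8 ± 1.40 CPM, and the centromeric H3 variant CENPA had 24.3 ± 0.63 and 23.97 ± 0.933 CPM. Their log2 fold changes of -0.05 (adjusted p = 0.37) and -0.02 (adjusted p = 0.767) did not pass the threshold and turned to 0.07 and 0.10 with library totals. H3-5, an intronless gene for an H3.3-like protein, had 1.94 ± 0.286 and 1.84 ± 0.334 CPM. The gene called higher, H2BW2, was under 0.4 CPM in each library, with a log2 fold change of 1.54. In DESeq2 this value was 1.53, but the call was lost (adjusted p = 0.0252).

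The factors that place and remove variants were counted as a list of 25 genes, all of which passed the filter. By edgeR 4 of the 25 were called lower (16%) and 2 higher, beside 9.36% lower and 11% higher of all tested genes. Of the tested genes that averaged 10 CPM or more, 11.9% were called lower. The median log2 fold change of the 25 factors was -0.08, and whether they were called more often than other genes was not tested. ATRX, the remodeller that works with DAXX on H3.3, fell from 161.7 ± 4.33 to 91.4 ± 1.37 CPM (SD, n = 3; log2 fold change -0.82), and UBN2, a subunit of the HIRA complex, fell from 92.9 ± 5.45 to 58.8 ± 1.31 CPM (-0.66). CABIN1, another HIRA complex subunit, rose from 157.0 ± 4.28 to 323.2 ± 17.5 CPM (1.04). HIRA itself had 63.3 ± 1.64 and 65.0 ± 1.52 CPM, so the genes of this complex differed in direction. For H2A.Z, ANP32E, a chaperone that removes it, fell from 222.6 ± 7.81 to 136.2 ± 6.74 CPM (-0.71), and DMAP1, shared by the SRCAP and EP400 complexes, rose from 35.7 ± 2.69 to 55.0 ± 2.75 CPM (0.62). SUPT16H, a subunit of the histone chaperone FACT, fell from 473.3 ± 14.3 to 284.9 ± 5.09 CPM (-0.73). The catalytic subunits SRCAP and EP400 had log2 fold changes of 0.13 and -0.08, the latter 0.03 with library totals.

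Whole stretches of chromosomes differed between these groups, so each gene was set beside the tested genes that start within 5 Mb of it. For H3-3A the 129 neighbors had a median log2 fold change of -0.30, with 99 below 0 and 39 called lower, further from 0 than H3-3A itself. For the other 7 members the neighbor medians lay between 0.01 and 0.15. H2AZ1 was the member furthest from its neighbors: 51 of them had a median of 0.14 and 1 was called lower, and within 2 Mb the median of 28 was -0.02. Among the factors, UBN2, ATRX and SUPT16H had neighbor medians of -0.64, -0.58 and -0.54, and DMAP1 had one of 0.39. CABIN1 had one of 0.06 and ANP32E one of -0.28. Each of these medians lay on the same side of 0 as the gene's own value and nearer 0, by least for UBN2 (-0.64 against -0.66). The part of the neighborhood in any of these differences was not tested.

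**Figure D5:**
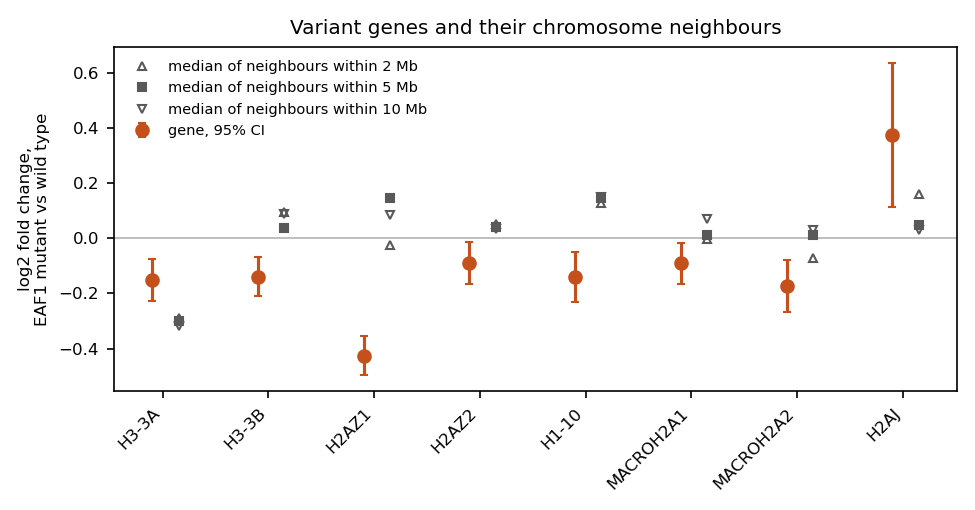
Log2 fold change, EAF1 mutant against wild type (vertical axis), of each variant gene with its 95% interval, and beside it the median of the tested genes within 2, 5 and 10 Mb of its start. H3-3A lies above the medians of its neighbors near -0.30, H2AZ1 at -0.43 lies well below those of its own, and H2AZ2 and MACROH2A1, which are above 0 with library totals, also lie below theirs on this scaling, by less than H2AZ1.

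Genes of the cell cycle were counted because RDH genes, unlike the variants, depend on S phase. Of 18 S-phase genes 1 was called lower, PCNA, the sliding clamp of DNA replication, from 225.5 ± 2.81 to 133.2 ± 1.90 CPM (SD, n = 3; log2 fold change -0.76). None was called higher by edgeR or DESeq2, and the median was -0.04. In edgeR 11 of 18 had an unadjusted p under 0.05 (61.1%). The same held for 56.2% of all tested genes and 73.6% of those that averaged 10 CPM or more, as all 18 did. The list summed to 3293, 3312 and 3373 CPM in wild-type and 3205, 3184 and 3236 CPM in EAF1-mutant libraries, with MCM7 the most abundant. Of 14 G2/M genes edgeR called 0 and DESeq2 called 1 lower, and the median of -0.12 was close to that of the variant genes. All averaged 10 CPM or more, and 11 had an unadjusted p under 0.05 in edgeR (78.6%, beside the same 73.6%). CENPF, the most abundant of them, had 638.1 ± 19.1 and 575.9 ± 19.7 CPM (log2 fold change -0.148). SLBP, which binds the stem-loop of RDH RNA, had 84.7 ± 0.593 and 86.4 ± 2.75 CPM. The part of the cell cycle in the variant genes' values was not tested.

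By log2 CPM over the 6 libraries, CAMK1, MRPL9 and ABCF2-H2BK1 were the genes most like H2AZ1, with Pearson's r of 0.9998, 0.9997 and 0.9996 among 11417 genes that averaged 10 CPM or more. The 6 libraries form 2 groups of 3, so r mostly follows the difference between groups, and 1080 genes had an r over 0.99. The 3 genes differed in the size of that difference, with log2 fold changes of -1.37 for CAMK1, -0.43 for MRPL9 and -0.87 for ABCF2-H2BK1.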

How the data were processed

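RNA-seq of 3 wild-type and 3 EAF1-mutant HEK293T libraries was analysed, with samples grouped by their labels. After trimming, the authors aligned read pairs to GRCh38 by HISAT2, and the deposited values are raw counts of Ensembl genes from Rsubread. The authors also deposited ELL ChIP-seq signal, library-scaled coverage summed over each of 90 RDH genes. PRO-seq, 4C-seq and in situ biotinylation-seq were not analysed here. Of 58395 genes, 57754 matched GENCODE release 44, and the 641 others held 2.81% of counts.

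From the deposited counts, edgeR 4.0.16 (R 4.3.3) was used for the filterByExpr filter, TMM scaling, CPM and quasi-likelihood tests, adjusted by Benjamini-Hochberg over 28025 genes. DESeq2 1.42.0 was an alternative, with other scalings, filters, thresholds, lengths and neighbor distances, a replicate block and each library left out. Thresholds follow the study's methods. Precision is set by depths of 52541541 to 66611451 counts and a biological coefficient of variation of 4.11%. The steps were tested on simulated counts. Sequences were searched in Python 3.11.15. Promoters are those of RefSeq and other sequences those of GENCODE.

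Members and lists were chosen with earlier results of these data known. Named genes were all members, listed histone genes of at least 1 CPM, factors called, the most abundant gene of the cell cycle, marker and retrocopy lists, and the 3 genes most like the member with the largest difference under TMM. The remaining named genes, H2BW2, HIRA, SRCAP, EP400, SLBP and H1-10-AS1 among them, were chosen after their values were seen. 1 listed histone gene is counted in its list and not reported here by name.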

Additional observations from a re-analysis of the deposited data

How the results depend on the processing

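No member was called under DESeq2, any scaling, any filter on low counts, the replicate block or with any library left out. At an adjusted p under 0.05 with no limit on the fold change, 7 members were lower and 1 higher, with 10 factors lower and 8 higher and 7170 genes lower and 7250 higher over all. With a log2 fold change over 1, 0 factors were lower and 1 higher, and 698 genes were lower and 1452 higher over all; these counts differ by the construction of the threshold. By DESeq2, 2388 genes were lower and 2499 higher, with RDH genes 53 lower and 7 higher against 55 and 12 by edgeR.

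The median log2 fold change of the 8 members, -0.14, was -0.025 with library totals and -0.091 with upper-quartile scaling, which was chosen after seeing the data. With library totals the values of H2AZ2 (0.025), MACROH2A1 (0.025), H2AX (0.066), H3-5 (0.023), CENPA (0.096), UBN1 (0.006), ASF1A (0.039), DEK (0.038) and EP400 (0.033) crossed 0, as did CENPA with upper-quartile scaling (0.03). H2AJ, at 0.374, ran from 0.187 without wild-type replicate 2 to 0.49 with library totals, where it was further from 0 than H2AZ1 (-0.311). The median of all tested genes was 0.13 with library totals and 0.06 with upper-quartile scaling. RUVBL1, at 0.002, was -0.009 with DESeq2, -0.001 without a filter, and -0.019 to 0.013 with a library left out. With a library left out H3-5 ran from -0.22 to 0.046 and CENPA from -0.051 to 0.008; the cause was not tested. H2BW2, at 1.538, lost its call in DESeq2 (1.532) and without wild-type replicate 3 (1.302) or EAF1-mutant replicate 3 (1.377).

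With 1 library left out, the median of the members ran from -0.15 to -0.135, factors numbered 4 lower and 2 higher, and 2493 to 2664 genes were lower and 2790 to 2924 higher.

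Per kb of merged exons, the variant share was 2.80% in wild-type and 4.96% in EAF1-mutant cells for H3, 3.67% and 5.82% for H2A and 1.12% and 1.88% for H1. Per kb of the longest transcript, wild-type levels in CPM were 189.1 for H3-3A, 107.5 for H3-3B, 253.8 for H2AZ1, 31.8 for H2AZ2, 19.0 for MACROH2A1 and 10.8 for MACROH2A2. Neighbor medians within 2 Mb were 0.159 for H2AJ and changed sign for H2AZ1 (-0.023), MACROH2A1 (-0.003) and MACROH2A2 (-0.072).

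With a replicate block, 0 members were lower and 0 higher, their median was -0.14, and 2631 genes were lower and 3055 higher, with 4 factors lower and 2 higher. Same-numbered libraries had correlated deviations of -0.01, -0.02 and 0.01 across genes, so the numbers do not pair the samples.

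Depth limits genes with few counts, such as H2AJ, H3-5 and H2BW2. Sequence shared among RDH genes was not measured. Counts of H3-3A share sequence with retrocopies, counts overlapping antisense RNAs cannot be parted without the strand setting, and protein levels, RNA ends and chromatin were not measured in these counts.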
